A study of Homo sapiens with 12 samples.

Results

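The 49 genes described here encode the enzymes that write and erase acetyl groups on histones, together with bromodomain proteins outside the BET (bromodomain and extra-terminal) family that can read them. They were taken by name from the table of expression values, as 18 deacetylases, 13 acetyltransferases and coactivators, and 18 non-BET bromodomain genes. All 49 were among the 22784 gene symbols of the table, and all 49 passed the filter on low values. The comparison asks which transcripts differ when BET bromodomains are blocked. The RNA came from SK-UT-1, an established human line of uterine leiomyosarcoma (uLMS). The cells were treated for 48 h with the DMSO vehicle (VEH in the labels), with 5 µM JQ1 or with 5 µM I-BET 762. The labels list 12 libraries, 4 in each group. Analysed here were 3 DMSO libraries (replicates 13, 14 and 15), 4 JQ1 libraries (replicates 17 to 20) and 3 I-BET 762 libraries (replicates 21, 22 and 23), while DMSO replicate 16 and I-BET 762 replicate 24 were not analysed here. All groups share the one cell line, and the labels do not say whether the libraries of a group came from separate cultures, so the p-values below measure the spread between these libraries, which may be technical.

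Acetyltransferases move an acetyl group from acetyl-CoA to a histone lysine, and such marks are common at active promoters and enhancers. The mark is removed by the zinc-dependent histone deacetylases (HDACs, in classes I, IIa, IIb and IV) and by the NAD-dependent sirtuins, and it is bound by bromodomains, a fold found in BET proteins and in many other chromatin proteins. JQ1 and I-BET 762 compete with acetyl-lysine for the binding pocket of BET bromodomains. Both are triazolodiazepines, with a thiophene ring fused to the diazepine in JQ1 and a benzene ring in its place in I-BET 762.

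Each DMSO library held 35564586 to 38899935 reads counted on genes, each JQ1 library 35691648 to 39658989, and each I-BET 762 library 37733027 to 38404997. The limit that a count of 0 allows, 3 reads, corresponds to 2.73 to 3.30 normalized counts depending on depth, and this floor covers counting error only. The 10 most abundant genes took 6.61% to 6.68% of the reads in DMSO, 8.59% to 9.33% in JQ1 and 7.70% to 8.16% in I-BET 762. Of 10 smooth muscle and uterine markers, 9 had a row. ACTA2 (7071 normalized counts in DMSO), CALD1 (9439), SMTN (2324) and TAGLN (1599) were abundant, DES (187), LMOD1 (160.0) and CNN1 (95.4) were low, and ESR1 and PGR were at or under the floor in DMSO. The blood and endothelial markers PTPRC, CD68, PECAM1 and VWF had means of 0 to 3.13 normalized counts in DMSO. The smooth muscle markers moved with the treatments: 6 of the 7 tested were called down with each inhibitor, as were 22.8% of all genes tested with JQ1 and 17.9% with I-BET 762. The exception was SMTN, with log2 differences of 0.19 and 0.20 (adjusted p = 0.0276 and 0.0344 in limma), not called. The epithelial markers were also lower, with 4 of 4 tested called down with JQ1 and 3 of 4 with I-BET 762. The part that either marker list plays in the results below was not tested.

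RefSeq promoter windows, which run from 250 bases before to 50 bases after a gene's start on GRCh38.p14, were matched by symbol for 40 of the 49 members. The members' windows held a median of 30.5 CpG dinucleotides and 67.7% G and C, against 14 and 58.3% over all 27305 windows. The windows of ZMYND8 and KAT2A are shown because these were the largest falls with JQ1 whose window lay within 1000 bases of the annotated gene start, and those of SIRT1 and TRIM33 because these were the called rises with such a window. Capitals mark 4 motifs found on either strand, and no one of these motifs contains another. The GC box was searched with the letters GGGCGG, and the CCAAT box with the letters of its name. The TATA box was searched with the letters TATAAA, and the canonical E-box, which MYC and MAX bind, with the letters CACGTG.
ZMYND8: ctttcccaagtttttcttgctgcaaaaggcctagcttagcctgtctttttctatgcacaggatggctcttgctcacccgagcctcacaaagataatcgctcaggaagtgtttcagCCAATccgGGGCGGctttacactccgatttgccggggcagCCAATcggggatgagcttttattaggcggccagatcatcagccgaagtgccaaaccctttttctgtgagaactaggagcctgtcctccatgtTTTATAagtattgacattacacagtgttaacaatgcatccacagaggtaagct
KAT2A: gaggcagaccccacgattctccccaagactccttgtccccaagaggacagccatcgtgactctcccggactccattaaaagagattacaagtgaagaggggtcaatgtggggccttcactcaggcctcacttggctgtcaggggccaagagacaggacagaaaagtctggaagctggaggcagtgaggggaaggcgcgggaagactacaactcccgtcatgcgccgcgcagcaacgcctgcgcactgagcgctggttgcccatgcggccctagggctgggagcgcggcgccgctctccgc
SIRT1: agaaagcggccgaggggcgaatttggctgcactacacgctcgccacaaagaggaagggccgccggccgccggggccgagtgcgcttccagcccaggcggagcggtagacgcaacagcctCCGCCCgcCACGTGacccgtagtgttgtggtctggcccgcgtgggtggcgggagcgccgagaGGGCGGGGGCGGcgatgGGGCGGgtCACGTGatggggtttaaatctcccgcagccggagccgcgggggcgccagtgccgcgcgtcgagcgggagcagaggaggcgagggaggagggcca
TRIM33: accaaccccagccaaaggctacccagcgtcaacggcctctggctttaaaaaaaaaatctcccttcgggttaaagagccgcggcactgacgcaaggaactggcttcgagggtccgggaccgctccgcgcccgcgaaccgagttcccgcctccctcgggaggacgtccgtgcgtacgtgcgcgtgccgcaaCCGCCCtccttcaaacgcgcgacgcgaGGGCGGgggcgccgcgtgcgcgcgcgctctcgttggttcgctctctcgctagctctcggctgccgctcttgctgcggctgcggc

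The ZMYND8 window (chr20:47356650-47356949, minus strand) held 9 CpG, 1 GC box, 2 CCAAT boxes and 1 TATA box. The KAT2A window (chr17:42121318-42121617, minus strand) held 18 CpG and none of the 4 motifs. The SIRT1 window (chr10:67884406-67884705, plus strand) held 39 CpG, 4 GC boxes and 2 E-boxes, and the TRIM33 window (chr1:114511154-114511453, minus strand) held 44 CpG and 2 GC boxes. Among windows within 1000 bases of the annotated start, those of 5 members called down with JQ1 held 2 to 36 CpG (median 9), those of the 2 called up held 39 and 44, and those of 27 members not called held 7 to 55 (median 31). The range of the members not called covered both called rises and most of the called falls, and the counts are given as a description. Over all 40 members with a window, the E-box was found in 2, against 7.43% of all promoters, the GC box in 27 (44.6% of all), the CCAAT box in 10 (35.7%) and the TATA box in 1 (12.0%). The ETS core CCGGAAG was found in 7 members (10.7% of all promoters), the cAMP response element TGACGTCA in 1 (1.98%), the AP-1 letters TGACTCA in 0 (4.92%) and the YY1 letters AAGATGG in 4 (6.06%). The windows of 6 members (HDAC2, HDAC4, HDAC7, HDAC9, SIRT4 and BAZ2B) lay farther than that from the annotated start and were left out of the CpG comparison. Of these, HDAC7 and HDAC9 fell with JQ1, and their windows held 33 and 5 CpG.

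In DMSO the members spanned a wide range of levels, given here per kilobase of annotated exon. The length used joins the exons of all annotated transcripts of a gene, whether or not these cells express them. A gene with many annotated exon bases can therefore rank low. HDAC2, with 5115 normalized counts over 15333 bases, stood at 334 per kb, and HDAC1, with 6806 over 3966 bases, at 1716. The order below holds for this measure only. BAZ1B, a bromodomain partner of an ISWI remodeller, had 2256 normalized counts per kb (range over the 3 libraries 2191 to 2324). ATAD2, an AAA ATPase with a bromodomain, had 2245 (2138 to 2305), and the ranges of these top 2 overlapped. HDAC1, a class I deacetylase of the NuRD, Sin3 and CoREST complexes, followed at 1716 (1654 to 1755), clear of the genes above and below it. HDAC3 (896 per kb), the nuclear B-type acetyltransferase HAT1 (877) and the p160 coactivator NCOA3 (853) came next, with overlapping ranges. KAT2A, the catalytic acetyltransferase of SAGA, was the seventh by mean at 787 per kb (769 to 810). Its range overlapped that of BAZ1A, the next gene, at 756 per kb (722 to 782). HDAC9 was at 465 per kb and was the highest of the class IIa enzymes in DMSO, above HDAC7 (146), HDAC5 (128) and HDAC4 (42.4). The lowest members were BAZ2B at 16 and HDAC10 at 7.1 per kb. MAPK12 shares 55.8% of the exon bases of HDAC10 on the same strand. An annotated gene without a symbol overlaps 29.0% on the opposite strand. How reads in shared bases were counted is not stated, and the effect on the HDAC10 level was not tested.

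**Figure D1:**
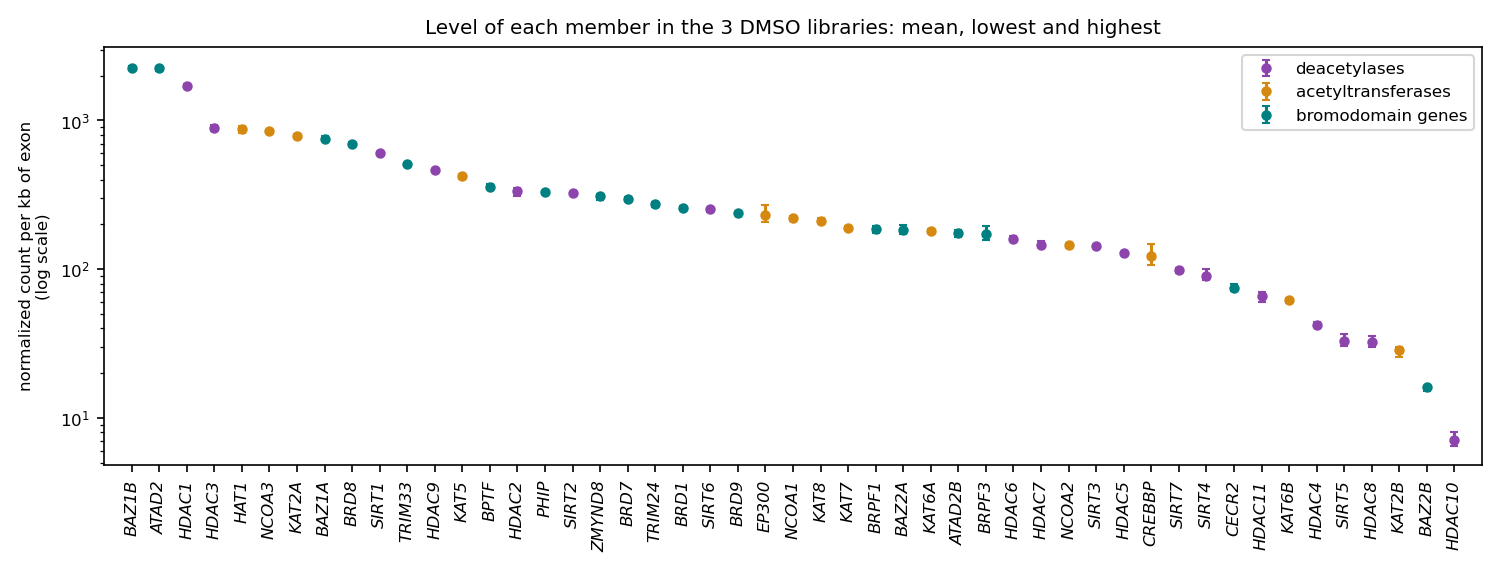
The vertical axis gives normalized counts per kb of exon on a log scale for all 49 members, ordered by their mean over the 3 DMSO libraries, with bars from the lowest to the highest library. BAZ1B and ATAD2 lie highest and HDAC10 lowest, at 7.1 per kb.

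With JQ1, 9 of the 49 members fell and 4 rose past both thresholds, an adjusted p-value under 0.05 in limma and a fold change over 1.5, which together are termed a call. The falls were HDAC9, ZMYND8, NCOA2, HDAC5, KAT2A, HDAC7, HDAC8, CREBBP and CECR2, and the rises were SIRT7, BAZ1A, SIRT1 and TRIM33. The 13 calls make up 26.5% of the members, and 36.1% of all 14839 genes tested were called with JQ1 (22.8% down and 13.3% up), so the members were called no more often than genes at large. By adjusted p alone, 36 members differed with JQ1, 22 higher and 14 lower, where the shares over all genes tested were 71.7%, 36% and 35.6%. The median log2 fold change was 0.00 over the members and 0.01 over all genes, and the median size of the change was 0.40 and 0.43. In 34 members the JQ1 libraries did not overlap the DMSO libraries, and 68.4% of all genes tested showed such a separation. In bulk RNA, a lower value from fewer cells that express a gene cannot be told apart from less RNA per cell.

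With I-BET 762, 6 members fell (HDAC9, ZMYND8, NCOA2, HDAC5, HDAC7 and KAT2A) and 3 rose (SIRT7, HDAC10 and TRIM33). The 9 calls make up 18.4% of the members, and 26.9% of all genes tested were called (17.9% down and 8.96% up). By adjusted p alone, 32 members differed, 21 higher and 11 lower, with shares of 61.1%, 29.9% and 31.3% over all genes. The median log2 fold change over the members was 0.14, and over all genes it was 0.00. In 35 members the I-BET 762 and DMSO libraries did not overlap (71% of all genes). Both comparisons use the same 3 DMSO libraries, so the values are set side by side below and agreement between them is not counted as a result.

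The split between rises and falls depends on how the libraries are scaled. Of all genes called with JQ1, 36.9% were rises under the deposited scaling and 22.5% were rises after the libraries were rescaled to equal totals, which moved the median of all genes by -0.18 on the log2 scale. Under equal totals, 16 members were higher and 23 lower with JQ1 by adjusted p, and 3 were called up and 11 down. HDAC1 and KAT7, whose changes with JQ1 were small (0.17 and 0.18), changed sign there. The members' median log2 fold change was then -0.18 for JQ1 (0.00 as deposited). For I-BET 762 it was 0.04 (0.14 as deposited). Changes are given below as deposited.

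**Figure D2:**
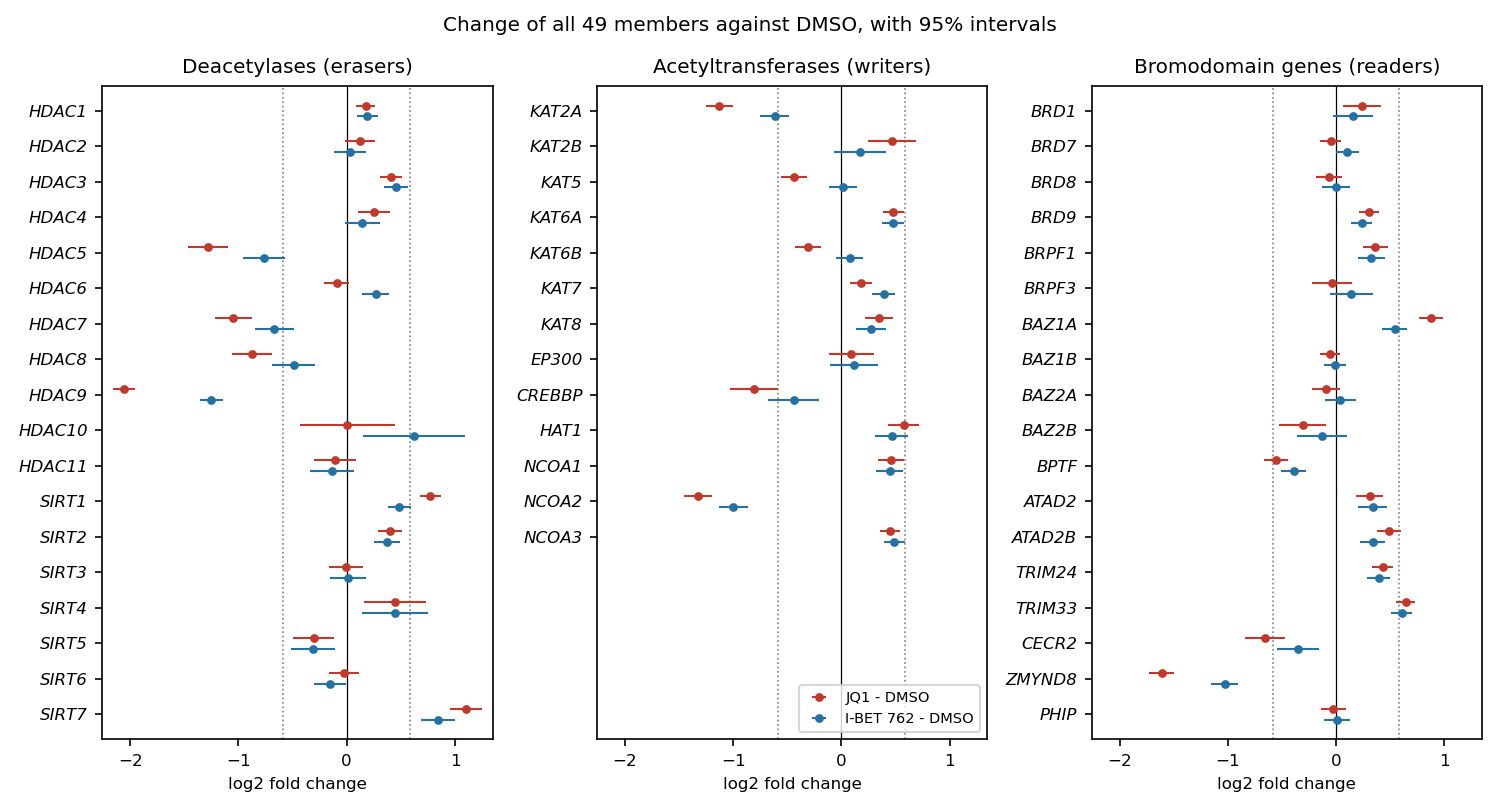
The horizontal axis is the log2 fold change against DMSO and each point is 1 member with its 95% interval, in red for JQ1 and in blue for I-BET 762. Dotted lines mark a fold change of 1.5, and HDAC9 (-2.06 and -1.25) and ZMYND8 (-1.61 and -1.03) lie farthest to the left.

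Among the erasers, 3 of the 4 class IIa deacetylases fell with both inhibitors, where 22.8% of all genes tested were called down with JQ1 and 17.9% with I-BET 762. Class IIa enzymes shuttle between nucleus and cytoplasm, bind MEF2 factors and have weak catalytic activity on acetyl-lysine of their own. HDAC9 (chr7:18086949-19002416, plus strand) had 7949.5, 8152 and 7986 normalized counts in the DMSO libraries, 1893, 2073, 1929.8 and 1835 in the JQ1 libraries and 3422, 3355 and 3344 in the I-BET 762 libraries. The 3 groups were fully separate, with JQ1 lowest, and no other member fell as far with either inhibitor. HDAC9 was 4.16-fold lower with JQ1 (log2 fold change -2.06 ± 0.05 SE, limma adjusted p = 1.37e-14) and 2.38-fold lower with I-BET 762 (-1.25 ± 0.05, adjusted p = 1.69e-11). By level per kb it was the first of the 4 class IIa genes in every group.

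HDAC5 (chr17:44076746-44123702, minus strand) had 969, 992 and 953 normalized counts in DMSO, 360.4, 363, 434 and 448 with JQ1 and 605, 583 and 532 with I-BET 762. Each inhibitor's libraries lay wholly under the DMSO libraries, and the JQ1 libraries lay under those of I-BET 762. The fall was 2.43-fold with JQ1 (adjusted p = 1.70e-09 in limma) and 1.70-fold with I-BET 762 (adjusted p = 2.90e-06). Of the exon bases of HDAC5, 24.0% are overlapped on the opposite strand by G6PC3, whose log2 fold changes were 0.03 with JQ1 and 0.10 with I-BET 762, and the strand setting of the counting is not stated. HDAC7 (chr12:47782722-47833132, minus strand) had 1525, 1408 and 1409.6 normalized counts in DMSO, 696, 611, 709 and 794 with JQ1 and 885, 860.2 and 990.3 with I-BET 762. Its 3 groups did not overlap either, and it was 2.07-fold lower with JQ1 (adjusted p = 8.83e-09, limma) and 1.59-fold lower with I-BET 762 (adjusted p = 6.04e-06). Other genes, SLC48A1 among them, overlap 11.2% of its exon bases on the opposite strand. HDAC4, the fourth class IIa enzyme, was not among the falls, with 625, 582 and 597 normalized counts in DMSO, 764, 655, 749 and 702 with JQ1 and 619.9, 678 and 698 with I-BET 762. Its JQ1 libraries lay above its DMSO libraries, a log2 difference of 0.25 with JQ1 (adjusted p = 0.00496, limma), short of the fold threshold, and of 0.14 with I-BET 762 (adjusted p = 0.114).

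Of the class I enzymes, HDAC1, HDAC2 and HDAC3 are catalytic subunits of nuclear corepressor complexes, and HDAC8 alone was called. HDAC8, which acts outside those complexes and deacetylates cohesin, had 817, 686 and 704 normalized counts in DMSO, 370.3, 435, 394 and 401 with JQ1 and 467, 561 and 545 with I-BET 762. All treated libraries were under all DMSO libraries, and the fall with JQ1 was 1.83-fold (limma adjusted p = 2.02e-07). With I-BET 762 the value was 1.40-fold lower (adjusted p = 3.10e-04 in limma), short of the fold threshold. HDAC3, the deacetylase of the NCoR and SMRT complexes, stood at 4130.3 ± 174 normalized counts in DMSO (SD, n = 3), 5480.4 ± 272 with JQ1 (n = 4) and 5667 ± 92.6 with I-BET 762 (n = 3). It was higher by 0.41 and 0.46 on the log2 scale, with non-overlapping libraries and below the fold threshold. HDAC1 differed from DMSO by 0.17 and 0.19, and its paralogue HDAC2 by 0.12 and 0.03, the latter with adjusted p-values of 0.0991 and 0.684 in limma.

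The class IIb enzymes and the class IV enzyme did not pass the adjusted p threshold with JQ1. HDAC6, the cytoplasmic tubulin deacetylase, had 2421, 2235 and 2306 normalized counts in DMSO, 2138, 2139, 2053 and 2377 with JQ1 and 2872, 2759 and 2761 with I-BET 762. The JQ1 libraries overlapped the DMSO libraries, and the I-BET 762 libraries lay above both, by 0.27 against DMSO on the log2 scale (limma adjusted p = 8.69e-04). HDAC10, a polyamine deacetylase, had the lowest values of the members. It had 33.9, 39.8 and 31.9 normalized counts in DMSO, 28.6, 40.3, 31 and 42.6 with JQ1 and 56.1, 45.1 and 64 with I-BET 762. Its JQ1 and DMSO libraries overlapped, while the I-BET 762 libraries lay above both, a rise of 1.54-fold (adjusted p = 0.0224, limma). That call was lost in 7 of 18 alternative analyses, among them leaving out DMSO replicate 13 (adjusted p = 0.0556), DMSO replicate 15 (0.0733), I-BET 762 replicate 21 (0.0605) or I-BET 762 replicate 23 (0.0963), and over all 18 the limma adjusted p ran from 0.0131 to 0.0963. MAPK12 shares 55.8% of the exon bases of HDAC10 on the same strand and fell, with log2 fold changes of -1.06 with JQ1 and -0.91 with I-BET 762, and its part in the HDAC10 value was not tested. HDAC11, the class IV enzyme, had log2 differences of -0.11 and -0.14 and passed neither threshold.

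The sirtuins had calls upward and none downward, 2 of 7 with JQ1 and 1 of 7 with I-BET 762. Over all genes tested, the shares called up were 13.3% and 8.96% and those called down 22.8% and 17.9%. SIRT7 (chr17:81911939-81921323, minus strand), a nucleolar and chromatin deacetylase that removes acetyl groups from lysine 18 of histone H3, had 607, 621 and 582 normalized counts in DMSO, 1444, 1147, 1318 and 1282 with JQ1 and 1084, 1083 and 1079 with I-BET 762. The groups did not overlap, and the I-BET 762 libraries lay close together under all JQ1 libraries. SIRT7 rose 2.14-fold with JQ1 (1.10 ± 0.07 SE on the log2 scale, limma adjusted p = 8.91e-10) and 1.79-fold with I-BET 762 (adjusted p = 9.52e-08). SIRT1, a nuclear NAD-dependent deacetylase of histones and p53, had 2736, 2810.5 and 2769 normalized counts in DMSO, 4706, 4881, 4627 and 4704 with JQ1 and 3670.2, 3938 and 4051 with I-BET 762. It rose 1.71-fold with JQ1 (adjusted p = 4.29e-10, limma), and with I-BET 762 it was 1.40 times the DMSO level (adjusted p = 4.19e-07), short of the fold threshold with no overlap of the groups. SIRT1 is the member shown above with 2 E-boxes in its promoter window.

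The other sirtuins had smaller differences. SIRT2, mainly cytoplasmic, was higher by 0.40 with JQ1 and 0.37 with I-BET 762 on the log2 scale, and the mitochondrial SIRT4 by 0.45 and 0.45, each with an adjusted p under 0.05 in limma. SIRT5, a mitochondrial enzyme that removes succinyl and malonyl groups, was lower by 0.30 and 0.31 in size (adjusted p = 0.00615 and 0.0103 in limma). SIRT3, the main mitochondrial deacetylase, had intervals of -0.16 to 0.15 with JQ1 and -0.15 to 0.18 with I-BET 762. For SIRT6, a chromatin deacetylase of histone H3, the intervals were -0.16 to 0.11 and -0.30 to -0.01, with an adjusted p of 0.0604 for I-BET 762 in limma.

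**Figure D3:**
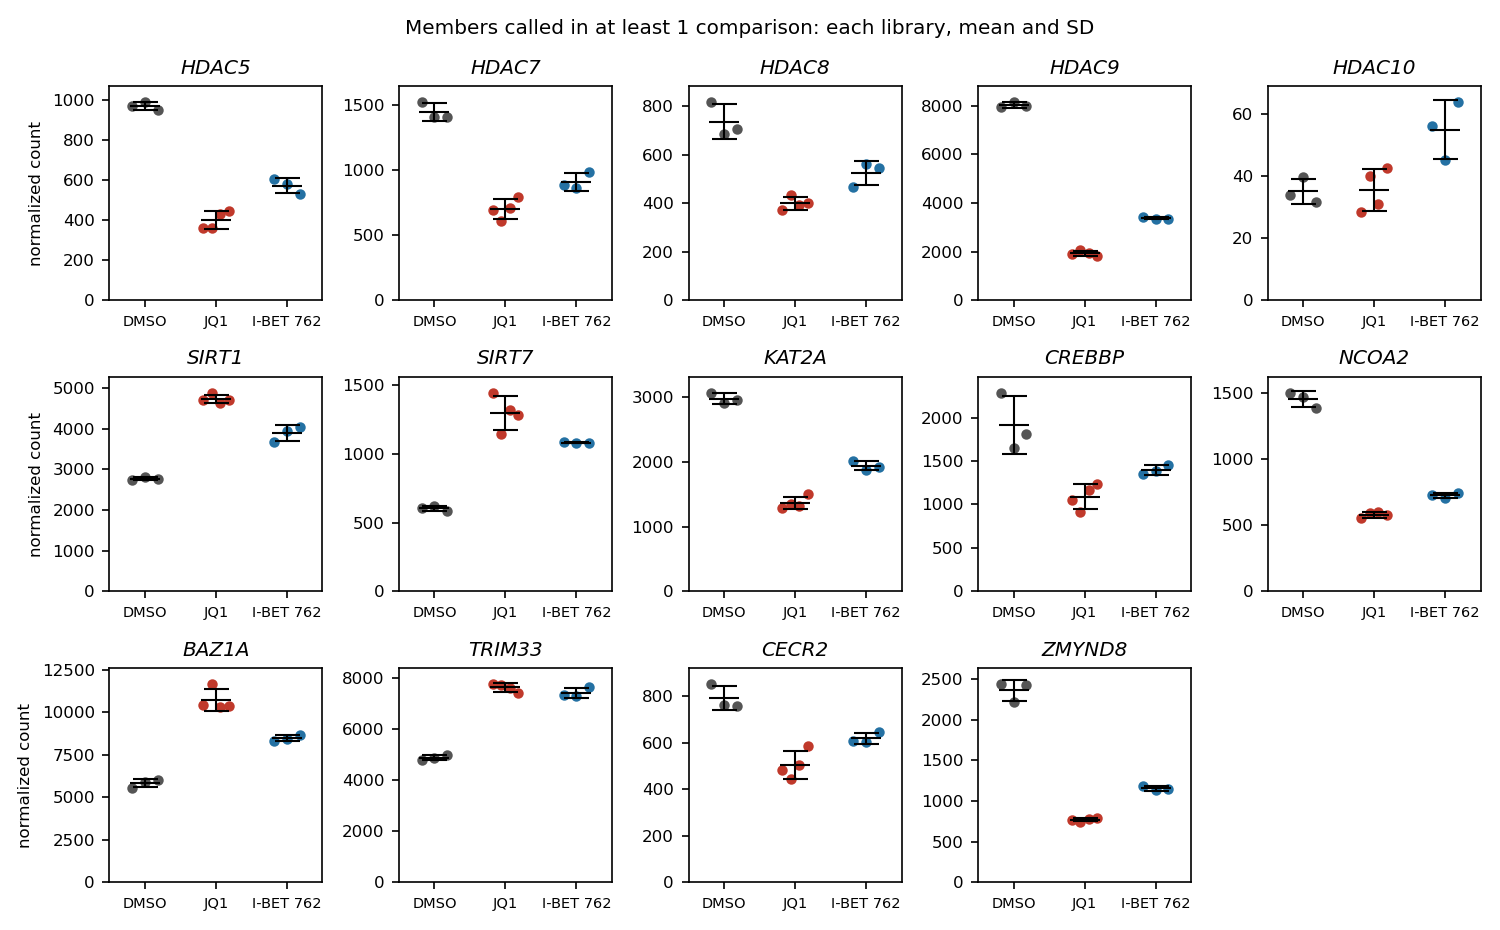
Each panel gives the normalized counts of 1 of the 14 members called in at least 1 comparison, on an axis from 0, with 1 point per library and bars for the mean and SD. In HDAC9, ZMYND8, NCOA2, HDAC5, HDAC7 and KAT2A every JQ1 library lies under every I-BET 762 library, and in HDAC10 the JQ1 and DMSO libraries overlap.

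Among the writers, 3 of 13 fell with JQ1, 2 of them also with I-BET 762, and 0 were called up with either. The called falls make up 23.1% and 15.4% of the writers, near the shares over all genes tested (22.8% and 17.9%). At an unadjusted p under 0.05 in limma, 7 writers were higher with JQ1 and 6 with I-BET 762, as were 5484 and 4715 of the 14839 genes. In each case a close relative did not fall. NCOA2, a p160 coactivator that recruits p300 and CBP to nuclear receptors, had 1503, 1476 and 1386 normalized counts in DMSO, 553, 592, 600.3 and 575 with JQ1 and 731, 705 and 745 with I-BET 762. The groups were fully separate, and NCOA2 was 2.51-fold lower with JQ1 (limma adjusted p = 1.58e-11) and, with an interval of -1.13 to -0.86 on the log2 scale, lower with I-BET 762 (adjusted p = 2.46e-09). Its paralogues lay on the other side of DMSO. NCOA1 was 1.37 times its DMSO level with JQ1 and 1.36 times with I-BET 762, and NCOA3 was 1.36 and 1.40 times, each with an adjusted p under 0.05 in limma and under the fold threshold. None of the 75-base stretches of exon of these 3 genes had an exact copy elsewhere in the genome.

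KAT2A (chr17:42113111-42121367, minus strand) had 3059, 2903 and 2949 normalized counts in DMSO, 1281, 1345, 1321 and 1501 with JQ1 and 2016, 1877 and 1918 with I-BET 762. No groups overlapped, and the fall was 2.18-fold with JQ1 (adjusted p = 6.94e-11, limma) and 1.53-fold with I-BET 762 (adjusted p = 3.71e-07). An annotated gene without a symbol shares 10.7% of the exon bases of KAT2A on the same strand. KAT2B, also called PCAF, which can take the place of KAT2A in the same complexes, was much less abundant per kb (28.4 in DMSO against 787). It stood at 148 ± 11.8 normalized counts in DMSO (SD, n = 3), 206 ± 15.5 with JQ1 (n = 4) and 167 ± 9.68 with I-BET 762 (n = 3), a log2 difference of 0.47 with JQ1 (adjusted p = 8.62e-04, limma) and of 0.18 with I-BET 762 (adjusted p = 0.191).

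CREBBP, which encodes CBP, had 2284, 1650.2 and 1806 normalized counts in DMSO, 1047, 914, 1167 and 1238 with JQ1 and 1348, 1383 and 1457 with I-BET 762. DMSO replicate 13 stood above the other DMSO libraries, yet all treated libraries lay under all DMSO libraries. The fall with JQ1 was 1.75-fold (limma adjusted p = 4.02e-06), and the value with I-BET 762 was 1.36-fold lower (adjusted p = 0.0029), short of the fold threshold. EP300, which encodes the related p300, had 3146, 2435 and 2532 normalized counts in DMSO, 2573, 2523, 3311 and 3112 with JQ1 and 2857, 2764 and 3105 with I-BET 762. These libraries overlapped throughout, and the intervals of its log2 fold change were -0.12 to 0.30 and -0.11 to 0.33.

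Under the deposited scaling, the MYST family of acetyltransferases had 0 calls against DMSO. The calls over all genes tested made up 36.1% for JQ1 and 26.9% for I-BET 762. Under equal totals, where 11 members were called down with JQ1, the calls of single MYST members against DMSO were not followed. At an unadjusted p under 0.05 in limma, 3 of the 5 were higher and 2 lower with JQ1, as were 5484 and 5429 of the 14839 genes. With I-BET 762, 3 were higher and 0 lower at that p, against 4715 and 4924 genes. KAT6A (0.48 with JQ1 and 0.48 with I-BET 762 on the log2 scale), KAT7 (0.18 and 0.39) and KAT8 (0.34 and 0.27), whose complexes acetylate histones H3 and H4, were higher with both inhibitors by adjusted p in limma. KAT5 and KAT6B were lower with JQ1 and near the DMSO level with I-BET 762, and their values are given with the direct comparison. HAT1, which acetylates newly made histone H4, came close to the fold threshold with JQ1 (1.49 times DMSO, from 5956 ± 305 to 8908 ± 949 normalized counts, SD), and stood at 1.38 times with I-BET 762.

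Among the readers, 2 of 18 fell and 2 rose with JQ1, and 1 fell and 1 rose with I-BET 762. These calls make up 22.2% and 11.1% of the readers, against 36.1% and 26.9% of all genes tested. ZMYND8 (chr20:47209214-47356889, minus strand), whose bromodomain binds acetylated histone H3 and H4 beside its PHD and PWWP domains, had 2441, 2214 and 2426 normalized counts in DMSO, 764, 745, 785 and 790.1 with JQ1 and 1186, 1132 and 1149.8 with I-BET 762. The 3 groups were far apart relative to their own spread. ZMYND8 was 3.06-fold lower with JQ1 (-1.61 ± 0.05 SE on the log2 scale, limma adjusted p = 6.45e-13) and 2.04-fold lower with I-BET 762 (adjusted p = 7.17e-10). It was second to HDAC9 among the members in both comparisons.

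TRIM33 (chr1:114392790-114511203, minus strand), a PHD and bromodomain protein that binds SMAD factors, had 4779.6, 4886 and 4972 normalized counts in DMSO, 7766, 7733, 7587 and 7415 with JQ1 and 7316, 7305 and 7626 with I-BET 762. All treated libraries lay above all DMSO libraries, and the JQ1 and I-BET 762 libraries overlapped. The rise was 1.56-fold with JQ1 (adjusted p = 1.10e-09, limma) and 1.52-fold with I-BET 762 (adjusted p = 1.23e-08), both just past the fold threshold. Rescaling to equal totals took them to 0.46 and 0.51 on the log2 scale and rescaling to upper quartiles to 0.58 and 0.57, and leaving out I-BET 762 replicate 23 gave 0.58 with I-BET 762, each short of the 1.5-fold threshold. TRIM24, its relative, was higher by 0.43 and 0.39 and was not called.

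The bromodomain partners of ISWI remodelling ATPases went in both directions. BAZ1A (chr14:34752731-34875647, minus strand), also called ACF1, had 5560.2, 5891 and 6017 normalized counts in DMSO, 10421, 11664, 10335 and 10362 with JQ1 and 8322, 8422 and 8687 with I-BET 762. JQ1 replicate 18 stood above the other JQ1 libraries, and the groups did not overlap with or without it. The rise with JQ1 was 1.84-fold (limma adjusted p = 3.33e-10), and the level with I-BET 762 was 1.46 times that in DMSO (adjusted p = 4.09e-07), short of the fold threshold. BAZ1A-AS1 overlaps 12.4% of the exon bases of BAZ1A on the opposite strand, and its log2 fold changes were -0.46 with JQ1 and 0.16 with I-BET 762. CECR2 had 852, 763 and 759 normalized counts in DMSO, 483, 444, 503 and 585 with JQ1 and 605, 603 and 646 with I-BET 762. It fell 1.57-fold with JQ1 (adjusted p = 4.40e-06, limma) and was 1.28-fold lower, short of the threshold, with I-BET 762.

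BPTF, the largest subunit of the NURF remodeller, lay just inside the fold threshold at -0.56 with JQ1 and -0.39 with I-BET 762, with no overlap of either inhibitor with DMSO. BAZ1B, the highest member by mean level per kb, had log2 differences of -0.05 (interval -0.15 to 0.04) and -0.01 (-0.11 to 0.09). For BAZ2A, a subunit of the nucleolar remodelling complex, the differences were -0.09 and 0.04. BAZ2B had -0.31 (adjusted p = 0.0124 in limma) and -0.13, and its values were not whole reads in every library.

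The remaining readers showed modest differences. ATAD2 was 1.24 times its DMSO level with JQ1 and 1.26 times with I-BET 762, and ATAD2B was 1.40 and 1.26 times, all by adjusted p in limma and none past the fold threshold. BRPF1, a scaffold of MYST acetyltransferase complexes, was 1.29 and 1.25 times. The scaffold BRD1 had a log2 difference of 0.24 with JQ1 (adjusted p = 0.017 in limma) and of 0.15 with I-BET 762, and BRPF3 had -0.04 and 0.14. BRD9, of the non-canonical SWI/SNF complex, was higher by 0.31 and 0.23, where 13 of its 117 exon stretches have an exact copy elsewhere in the genome. BRD7, of the PBAF form of SWI/SNF, had -0.05 and 0.10. Other genes, ADCY7 among them, overlap 41.9% of the exon bases of BRD7 on the opposite strand, and 8 of its 105 exon stretches have an exact copy elsewhere. BRD8, of the NuA4 complex, had -0.06 and -0.00, and PHIP, a WD40 and bromodomain protein, had -0.03 and 0.01. None of the last 3 passed the adjusted p threshold against DMSO.

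The direct comparison of the 2 compounds at the same dose and time was a single pair. Lower values with JQ1 than with I-BET 762 were called for 2 members, HDAC9 and HDAC10, and higher values for 0, with 5 members higher at an unadjusted p under 0.05 in limma. They make up 4.08% of the members, and 5.31% of all genes tested were called in this comparison (3.59% lower and 1.73% higher with JQ1). By adjusted p alone, 21 members differed, 16 lower and 5 higher with JQ1, with shares of 27.3%, 14% and 13.3% over all genes. The median log2 difference was -0.02 over the members and 0.00 over all genes, and in 23 members the 2 compounds' libraries did not overlap, as in 33.8% of all genes. Rescaling to equal totals lowered the share of calls over the whole table that were higher with JQ1 from 32.5% to 18.0%, and it raised the called members to 5.

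HDAC9 was 1.75-fold lower with JQ1 than with I-BET 762 (-0.80 ± 0.05 SE on the log2 scale, limma adjusted p = 5.74e-08). HDAC10 was 1.54-fold lower (adjusted p = 0.0362 in limma), a call lost in 7 of 18 alternatives (adjusted p from 0.0178 to 0.156), including without JQ1 replicate 17 (0.0896), JQ1 replicate 19 (0.082), I-BET 762 replicate 21 (0.108) or I-BET 762 replicate 23 (0.156). ZMYND8 lay at the fold threshold, with a difference of -0.58 (interval -0.70 to -0.47, adjusted p = 2.84e-06), and it passed the threshold in 6 of 19 alternatives, including without JQ1 replicate 19 or 20 or I-BET 762 replicate 22 or 23 (-0.60 to -0.59). HDAC5 (-0.52), KAT2A (-0.51), HDAC8 (-0.39), HDAC7 (-0.38), CREBBP (-0.36), NCOA2 (-0.33) and CECR2 (-0.30) were also lower with JQ1 by adjusted p. BAZ1A (0.33), SIRT1 (0.28) and SIRT7 (0.26) were higher with JQ1. Apart from HDAC10, which was called with I-BET 762, these members had been called in the comparison of the same JQ1 libraries with DMSO, so their direct differences are given as a description. For TRIM33, also called with both, the difference was 0.04 with an interval of -0.05 to 0.13.

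Among members called against DMSO by neither compound, 8 differed between the compounds by adjusted p, with the widest differences in KAT5, KAT6B and HDAC6. KAT5, the catalytic subunit of the human NuA4 (TIP60) complex, had 1225, 1199, 1139 and 1119 normalized counts with JQ1 and 1698, 1575 and 1543 with I-BET 762, against 1518, 1639 and 1607 in DMSO. All JQ1 libraries were under all others, and the I-BET 762 and DMSO libraries overlapped. The difference was -0.46 ± 0.06 (SE, limma adjusted p = 3.58e-05). RNASEH2C overlaps 38.6% of the exon bases of KAT5 on the opposite strand, and it differed between the compounds by 0.34, the opposite direction. KAT6B, the catalytic subunit of the MORF complex, had 1554, 1541, 1637 and 1734 with JQ1, 2191, 2077 and 2058 with I-BET 762 and 2090.0, 1916 and 2002 in DMSO, the same arrangement, with a difference of -0.38 ± 0.06 (adjusted p = 1.30e-04, limma). For HDAC6, where I-BET 762 lay above and JQ1 overlapped DMSO, the difference was -0.36 ± 0.05 (adjusted p = 1.99e-04, limma).

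The other 5 of these 8 had smaller differences at an adjusted p under 0.05 in limma, namely KAT7 (-0.21), BPTF (-0.16), BRD7 (-0.15), KAT2B (0.29) and ATAD2B (0.15). For the other 28 members no difference was detected at this depth and spread. Their intervals were narrow for some, such as KAT6A (-0.10 to 0.10), NCOA3 (-0.13 to 0.05), HDAC1 (-0.11 to 0.07) and BAZ1B (-0.14 to 0.05), and wider for others, such as SIRT4 (-0.29 to 0.28) and BAZ2B (-0.39 to 0.04).

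**Figure D4:**
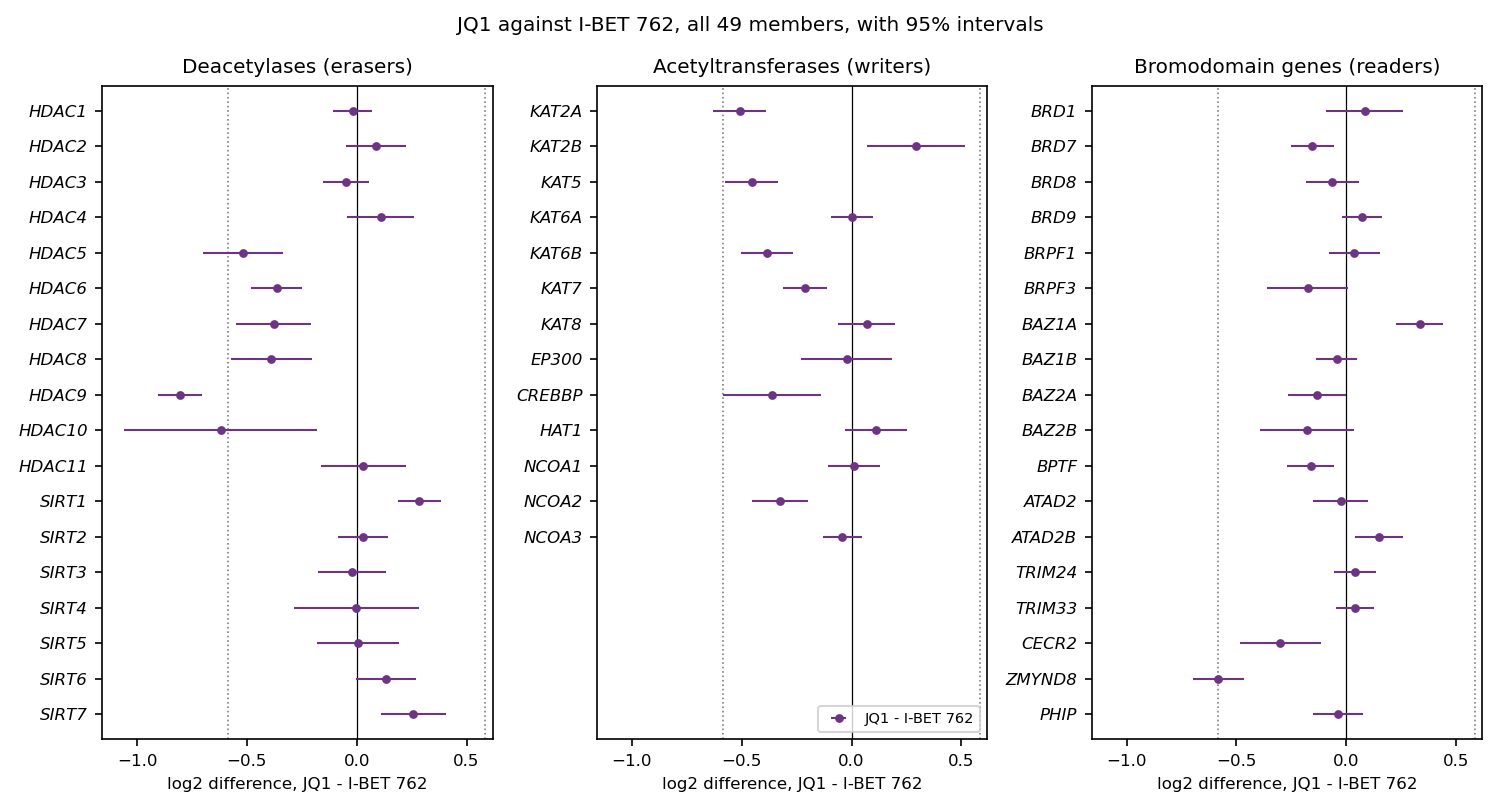
The horizontal axis is the log2 difference between JQ1 and I-BET 762 for each member with its 95% interval, negative where JQ1 was lower, and dotted lines mark a fold change of 1.5. HDAC9 (-0.80) and HDAC10 (-0.62) lie past the line on the left, with a much wider interval for HDAC10.

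Partner genes of the members were counted in the same fit. Of 14 tested bromodomain genes outside the members and the BET family, 3 were called up and 4 down with JQ1 (50%, against 36.1% of all genes tested). With I-BET 762 the counts were 2 up and 4 down (42.9%, against 26.9% of all genes). TRIM28, the corepressor of KRAB zinc finger proteins, had the largest called rise with JQ1, from 15263 ± 459 normalized counts in DMSO to 27069 ± 1414 (SD, log2 fold change 0.83) and 23552 ± 77.5 with I-BET 762. SP100, a component of PML nuclear bodies, had the largest fall, from 4048 ± 199.6 to 1259 ± 55.3 (-1.68) and 1407 ± 50 (-1.52). Of 35 subunits of deacetylase complexes, 4 were called up and 5 down with JQ1 (25.7%), while I-BET 762 gave 3 up and 3 down (17.1%). CHD3, an ATPase of NuRD, fell 4.43-fold with JQ1 and 3.56-fold with I-BET 762, and ING1, a Sin3 complex subunit that binds trimethylated lysine 4 of histone H3, rose 2.09-fold and 1.64-fold.

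Of 41 subunits of acetyltransferase complexes, 2 were called up and 5 down with JQ1 (17.1%, against 36.1% of all genes tested), while I-BET 762 gave 2 up and 3 down (12.2%, against 26.9%). JADE2, a scaffold of the KAT7 complex, fell 4.40-fold with JQ1 and 3.09-fold with I-BET 762, and ING3, of the NuA4 complex, rose from 689 ± 67 normalized counts in DMSO to 1170.1 ± 85.3 and 1374 ± 87.6 (SD). Among 4 readers with a YEATS domain, 2 of which are also subunits counted above, MLLT3 was called, with log2 fold changes of 1.78 and 2.09 from a low level of 27.7 ± 0.84 normalized counts in DMSO. Among 5 genes of acetyl-CoA and NAD supply, the citrate carrier SLC25A1 was called, at 1.81 and 1.66 times its DMSO level.

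**Figure D5:**
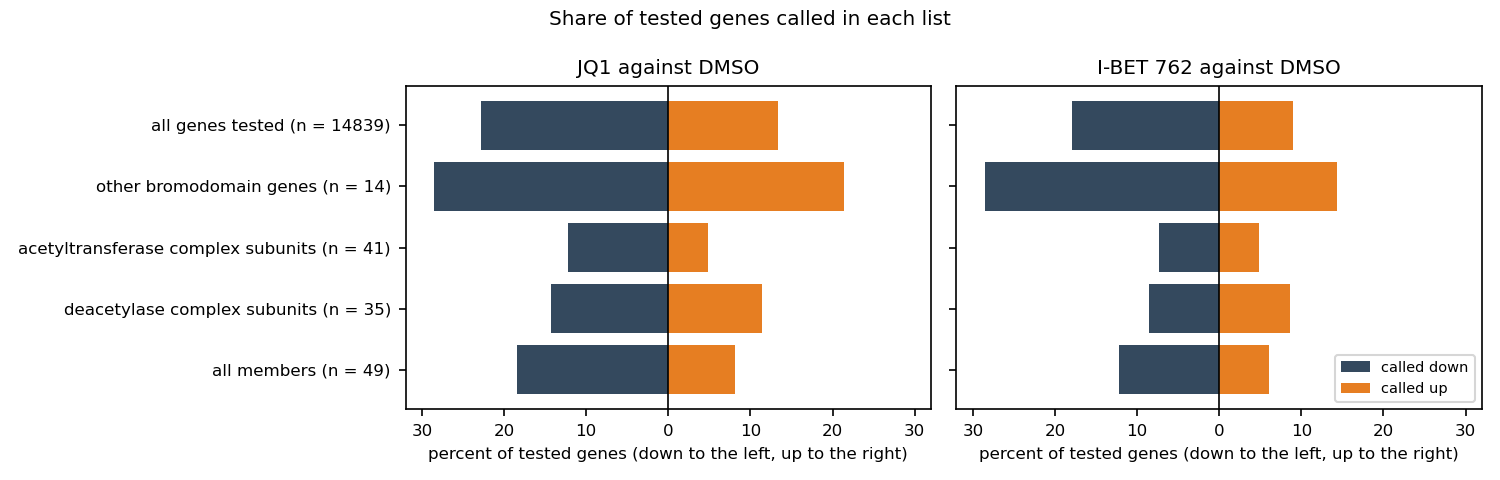
Bars give the percentage of tested genes called down (to the left) and up (to the right) against DMSO in each list and over all 14839 genes. The members stand at 26.5% called with JQ1 and 18.4% with I-BET 762, against 36.1% and 26.9% over all genes.

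BRD3, a BET gene and so one that encodes a target of both compounds, stood at 1325 ± 23.8 normalized counts in DMSO, 1058 ± 96.2 with JQ1 and 1026 ± 18.5 with I-BET 762 (SD), log2 differences of -0.33 and -0.37. The adjusted p-values were 3.78e-04 and 3.45e-04 in limma, and neither inhibitor's libraries overlapped those of DMSO. Both differences were short of the fold threshold, so BRD3 was not called in either comparison. The values of BRD2, another BET gene, ran from 6.78 to 153 in the DMSO libraries alone. Of its 114 exon stretches of 75 bases, 109 have an exact copy on alternate contigs of the genome, it is not stated whether the aligner's index included them, and no change of BRD2 is read here.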

How the data were processed

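RNA-seq libraries from total RNA of SK-UT-1 cells had been prepared with a strand-specific kit. Per the submitters' processing notes and the methods of the study, the authors checked reads with FastQC 0.73, trimmed them with Trimmomatic, aligned them to hg38 with HISAT2 2.2.1, counted them on Gencode V41 genes with featureCounts 2.0.3, normalized them with DESeq2 and left out outlier samples, and the strand setting of the counting is not stated. Each deposited value is the log2 of a normalized count with 1 added, for 22784 symbols in 10 libraries. The labelled libraries not analysed here have no values among these, and whether they were the outlier samples left out is not stated. If they were, the p-values rest on a spread that this choice made narrower. Undoing the log2 gave whole multiples of 1 step for 99.73% to 99.77% of the values (tolerance 0.01), which gave the reads per library. For 48 of the 49 members every library held whole reads (tolerance 0.05). Within-group pairs of libraries differed by more than counting error.

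Genes with a normalized count of at least 10 in at least 3 libraries (14839) entered a linear model in limma 3.58.1 (R 4.3.3) on the deposited log2 values with pseudocount 1, with all 10 libraries in the model and variances moderated along an intensity trend. Tests were two-sided, with Benjamini-Hochberg adjustment over all genes tested in each of 3 comparisons, and a call needed an adjusted p under 0.05 and a fold change over 1.5. Fold changes are on the log2(value + 1) scale, which understates changes of low genes. The code was tested on simulated data with known changes. Groups were taken from the labels.

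Every member is named at least once, and values of every library are given for members called in any comparison and for others set beside them. From the partner lists, BET genes and the called gene with the largest rise and largest fall with JQ1 in each list are named. Some results are not reported here. Members, lists and rules were chosen with earlier results of these data known. Gene positions and overlaps came from the reference annotation on GRCh38, and promoter windows from RefSeq. Tables and figures were made with Python 3.11.15, pandas 2.3.3, numpy 2.4.6 and matplotlib 3.10.9. Alternatives were other pseudocounts, filters, scalings, fold thresholds and moderation, limma-voom on recovered reads, a fit of only the groups compared, and leaving out each library.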

Additional observations from a re-analysis of the deposited data

Results flagged for a closer look

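For each member, over the 4 JQ1 libraries, the gap between an extreme library and its nearest neighbour was divided by the group's range and compared with Dixon's 95% critical value. Of 49 members checked, 6 had 1 library past that value, and chance alone passes it in about 1 in 20 groups. Replicate 20 stood apart in 3 of them. HDAC11 had 339.8 normalized counts there and 310.1 to 314.3 in the other JQ1 libraries, KAT7 had 3805 against 3485 to 3512, and NCOA1 had 2955 against 2632 to 2658. Replicate 18 stood apart in BAZ1A, at 11660 against 10330 to 10420, and in ATAD2, at 22320 against 18760 to 19190. In replicate 19, SIRT6 had 695.3 against 677.8 to 680.2. The groups of 3 libraries were not checked in this way.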

How the results depend on the processing

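No paired analysis was possible because the replicate numbers 13 to 24 all differ between the groups. The number of members called with JQ1 was 4 up and 9 down, and leaving out 1 library at a time gave 4 to 5 up and 9 down. With I-BET 762 it was 3 up and 6 down, with 1 to 3 up and 6 down when a library was left out (1 up without I-BET 762 replicate 23). Between the compounds 2 members were called, and 1 to 3 when a library was left out (1 without JQ1 replicate 17 or I-BET 762 replicate 21). That count was also 1 with a pseudocount of 5, with every gene above 0 tested, with a mean count of at least 100 (which removes HDAC10) and with only the compared groups in the fit, and it was 5 under equal totals. Under equal totals the rises with I-BET 762 numbered 1. Without a fold threshold the members called were 22 up and 14 down with JQ1, 21 up and 11 down with I-BET 762, and 21 between the compounds. At a fold change over 2 they were 1 up and 6 down with JQ1, 0 up and 2 down with I-BET 762, and 0 between the compounds. Over the whole table, the 5358, 3991 and 788 calls (JQ1, I-BET 762 and between the compounds) became 3359, 2338 and 418 at a mean count of at least 100, where fewer genes are tested, 10633, 9073 and 4047 without a fold threshold, and 2958, 2108 and 206 at a fold over 2. The HDAC10 value with JQ1 (0.00) changed sign under equal totals (-0.18), under upper quartiles (-0.058) and without single libraries, over which it ran from -0.086 to 0.10. The direct comparison of single members was followed over the alternatives only for HDAC5, HDAC6, HDAC9, HDAC10, SIRT1, KAT2A, KAT5, KAT6B and ZMYND8. For HDAC6, KAT5 and KAT6B it was the only comparison followed. Single members were followed over the alternatives only for the 17 called in a comparison or widest apart between the compounds. Of their 700 alternative values, 667 kept their direction and side of the thresholds, 19 lost the call, 8 gained it and 6 changed sign, all 6 in HDAC10, while outside these 17 HDAC1 and KAT7, which differed by adjusted p, changed sign with JQ1 under equal totals. Causes were not tested. With 3 or 4 libraries a group, differences inside the intervals given cannot be resolved.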
